A study of Danio rerio with 4 samples.

Results

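Macrophages and neutrophils are the first white blood cells of the zebrafish embryo, and 8 genes that mark them or white blood cells in general were followed here in cells sorted from Tg(fli1a:egfp) embryos. The genes were mpx and lyz of neutrophils and early myeloid cells, mpeg1, havcr1 and cxcr3.2, taken here as macrophage genes, and lcp1, coro1a and ptpn6 of most white blood cells. They were chosen with earlier results of these data known and were matched by symbol. The 8 symbols matched 10 of the 31716 gene rows of the expression table, because ptpn6 and lcp1 each name more than 1 row. Where a symbol named more than 1 row, the row with the higher GFP-positive value is called its main row. In GFP-positive cells the main row of each gene stood between 10.7 and 192 FPKM (mapped fragments scaled by transcript length and library size). The second rows of ptpn6 and lcp1 had 5.75 and 0.149 FPKM there. In GFP-negative cells no row exceeded 1.11 FPKM, and 6 of the 10 were listed at exactly 0.

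All embryos carried the transgene, in which regulatory sequence of fli1a drives enhanced green fluorescent protein, and were grown to 24 hours post fertilization. They were dissociated and fixed, and fluorescence-activated cell sorting separated GFP-positive cells (endothelial, by the labels) from GFP-negative cells (non-endothelial). There were 4 RNA-seq libraries, 2 per fraction, made from total RNA recovered by the MARIS protocol for fixed cells. The table holds 1 value per gene and fraction, so levels below are the authors' values for a fraction, and neither the depth nor the spread between libraries is known. Separate clutches are not stated in the labels, so p-values speak for these libraries and the spread behind them may be technical.

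In zebrafish embryos the earliest macrophages arise from lateral mesoderm, which also gives vessels and red cells. These macrophages spread over the yolk before entering the tissues. Neutrophils appear soon afterwards and carry granules with a peroxidase and other antimicrobial enzymes. Both depend on the transcription factor PU.1, and both move by remodelling an actin cortex with proteins such as L-plastin and coronin. The fli1a gene is itself active in early lateral mesoderm as well as in endothelium.

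Across the whole table, 7299 rows were tested by the authors, and 1046 of them passed a q-value of 0.05 in the authors' deposited table, which is 14.3%. Of the tested rows 524, or 7.18%, were called higher in GFP-positive cells and 522, or 7.15%, were called lower. Of the 10 leukocyte rows, 6 were tested, and the authors' deposited table called 4 higher (mpx, mpeg1, havcr1 and ptpn6), 0 lower, and made no call for 2 (lyz and coro1a). The other 4 rows had no test. Every tested leukocyte row stood higher in GFP-positive cells, so a call in the other direction was not possible at any threshold. A row passes the requirement for enough alignments through the fraction where it is high, so the 4 of 6 describes these rows and is no measure of how often leukocyte genes differ. All 10 rows stood higher in GFP-positive cells, against 9472 of all 31716 rows and 3879 of the 7299 tested rows. Among all rows, 10906 were listed at 0 in both fractions and so could not stand higher, and 11338 stood lower. With 1 FPKM added to each value, the median log2 ratio of GFP-positive to GFP-negative cells was 4.72 over the 10 rows, tested or not. Over all tested rows it was 0.05, and over all rows, tested or not, it was 0. In a sorted bulk fraction, fewer cells of a type and less RNA per cell cannot be told apart.

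**Figure D1:**
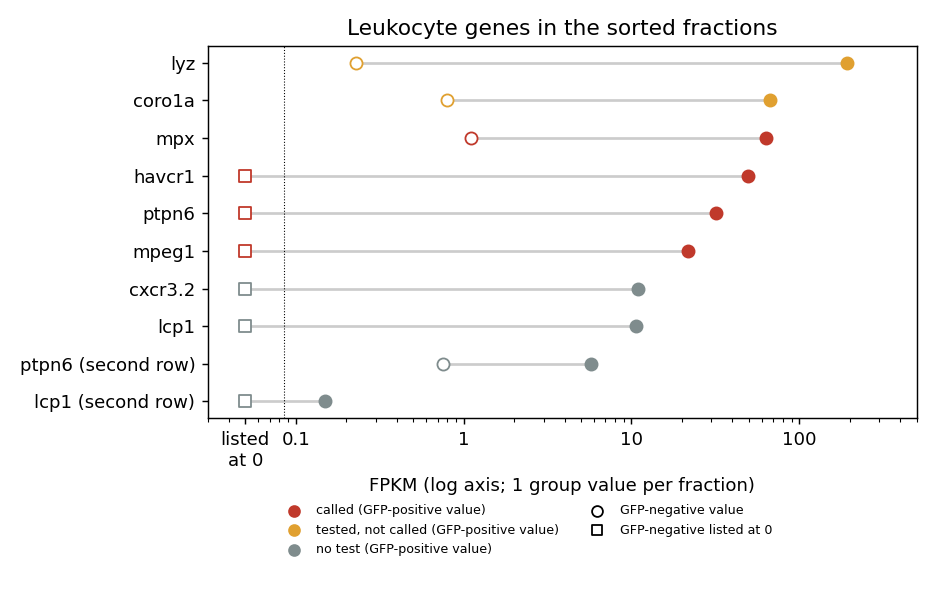
FPKM of the 10 rows in each sorted fraction on a log axis, with filled points for GFP-positive cells, open points for GFP-negative cells and open squares for rows listed at 0; colour gives the call in the authors' deposited table. Every filled point lies to the right of its open point, and lyz, with the highest GFP-positive level at 192 FPKM, is among the tested rows that were not called.

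The neutrophil genes differed in their calls although both were far apart between the fractions. The gene mpx encodes the myeloperoxidase of zebrafish neutrophil granules (ENSDARG00000019521; chromosome 10, 6799256 to 6814445 in Zv9). Its level was 63.6 FPKM in GFP-positive cells and 1.11 FPKM in the GFP-negative fraction. The 57.1-fold difference passed, with p = 5e-05 and q = 0.000958 in the authors' deposited table. The reference of gene names used here gives this ID the symbol EPX, for the eosinophil peroxidase, which belongs to the same enzyme family.

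The gene lyz encodes lysozyme C, which breaks bacterial cell walls and in zebrafish marks neutrophils and part of the early macrophages (ENSDARG00000057789; chromosome 24, 24622827 to 24646748). Its level was 192 FPKM in GFP-positive cells and 0.227 FPKM in the GFP-negative fraction. The ratio of 846 was the largest among all tested rows with values above 0 in both fractions. With 1 value per fraction it cannot be seen whether both GFP-positive libraries carry such a level, and the same holds for coro1a, npsn and mfap4 below. It was not called by Cuffdiff (adjusted p of 0.525 and p of 0.208 in the authors' deposited table). In GFP-positive cells the lyz level was 3.03 times the mpx level on the FPKM scale, and lyz ranked 448 of the 31716 rows against 1240 for mpx. The Cuffdiff locus of lyz also holds chodl, at 2.78 FPKM in GFP-positive cells and 6.05 FPKM in the GFP-negative fraction, with no test.

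The macrophage genes were all listed at 0 in GFP-negative cells, so none has a fold. The gene mpeg1 encodes perforin-2, a pore-forming protein of phagocytes, and its promoter is widely used to label zebrafish macrophages (ENSDARG00000055290; chromosome 8, 30558151 to 30561663). Its level was 21.7 FPKM in GFP-positive cells, and it was called with q = 0.000958 in the authors' deposited table. The gene havcr1 belongs to the TIM family, whose mammalian members include receptors for phosphatidylserine on dying cells (ENSDARG00000040178; chromosome 21, 28496782 to 28504565). It stood at 49.8 FPKM in GFP-positive cells, 2.30 times the mpeg1 level, and was called with the same q in the authors' deposited table. The chemokine receptor gene cxcr3.2, which in zebrafish guides macrophages to sites of infection (ENSDARG00000041041; chromosome 16, 13568132 to 13576293), had 11.0 FPKM in GFP-positive cells. It had too few alignments for a test, so its difference is given by the 2 levels alone.

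Copies and relatives of these genes stood below 1 FPKM in both fractions; the TIM family relatives were chosen for mention after their values had been seen. A row named MPEG1 (1 of 3), also on chromosome 8, had 0.302 FPKM in GFP-positive cells and 0.496 FPKM in the GFP-negative fraction, and MPEG1 (3 of 3) was listed at 0 in both. Of the rows named cxcr3.1, one had 0.542 FPKM in GFP-positive cells against a listed 0, and the other 0.401 against 0.185 FPKM. Next to havcr1, the TIM family gene timd4 had 0.269 FPKM against a listed 0, and havcr2 was listed at 0 in both. These rows had no test. How the authors' counting divided reads among such copies is not given in the sources used here, so the split between them is uncertain.

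Of the genes shared by most white blood cells, ptpn6 was called in its main row, coro1a was tested and not called, and lcp1 had no test. The gene coro1a encodes coronin 1A, an actin-binding protein of white blood cells (ENSDARG00000054610; chromosome 3, 31072364 to 31092481). It had 67.0 FPKM in GFP-positive cells and 0.799 FPKM in the GFP-negative fraction. The ratio of 83.8 was not called by Cuffdiff either (adjusted p of 0.557 and p of 0.238 in the authors' deposited table). Its Cuffdiff locus also holds the claudin gene cldni, which went the other way at 26.7 against 91.5 FPKM. Its q in the authors' deposited table was 0.104, above the threshold. Of the related coronin genes, coro1b had 2.29 against 5.27 FPKM with no test. The others, coro1ca and coro1cb, had 21.4 against 13.9 FPKM and 42.9 against 44.1 FPKM, and their q in the authors' deposited table was 0.352 and 0.977.

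The gene ptpn6 encodes the tyrosine phosphatase SHP-1, which restrains signalling in blood cells. The row ENSDARG00000013916 (chromosome 16, 34227445 to 34240643) had 32.1 FPKM against a listed 0 and was called (q = 0.000958, authors' deposited table). The reference of gene names used here lacks this ID and gives PTPN6 to the second row below. The symbol of the called row is thus the deposited one alone. The row ENSDARG00000089043 (chromosome 16, 33958372 to 33978787) carries the same symbol and had 5.75 FPKM in GFP-positive cells and 0.751 FPKM in the GFP-negative fraction, a ratio of 7.65 with no test. Among the related SHP-2 genes, ptpn11b was called higher with 9.69 against 1.27 FPKM and q = 0.00488 in the authors' deposited table. Its partner ptpn11a had 21.6 against 20.2 FPKM and was not called (q = 0.936, authors' deposited table).

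The gene lcp1 encodes L-plastin, the actin-bundling protein of white blood cells. The row on chromosome 9 (ENSDARG00000023188; 57977605 to 57985364) had 10.7 FPKM in GFP-positive cells against a listed 0, with no test. A second row of that symbol lies on the unplaced scaffold Zv9_NA484 (ENSDARG00000088098; 21676 to 28406), with 0.149 FPKM in GFP-positive cells and 0 in GFP-negative cells. The related T-plastin gene pls3 had 56.4 against 35.3 FPKM and was not called (q = 0.471, authors' deposited table).

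In order of GFP-positive level, the main rows ran lyz, coro1a, mpx, havcr1, ptpn6, mpeg1, cxcr3.2 and lcp1, with an 18.0-fold range from first to last. With no spread over libraries, it cannot be said which neighbours in this order differ. The 3 genes called at the 0 level in GFP-negative cells had 21.7 to 49.8 FPKM in GFP-positive cells, and the untested genes at 0 had 10.7 and 11.0 FPKM. Summed over the 10 rows, the genes gave 454 FPKM in GFP-positive cells and 2.89 FPKM in the GFP-negative fraction, which is 0.0568% and 0.000435% of all FPKM in the fractions. Of the tested rows, 98.9% had a higher GFP-negative value than lyz, 97.9% than coro1a and 97.5% than mpx.

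**Figure D2:**
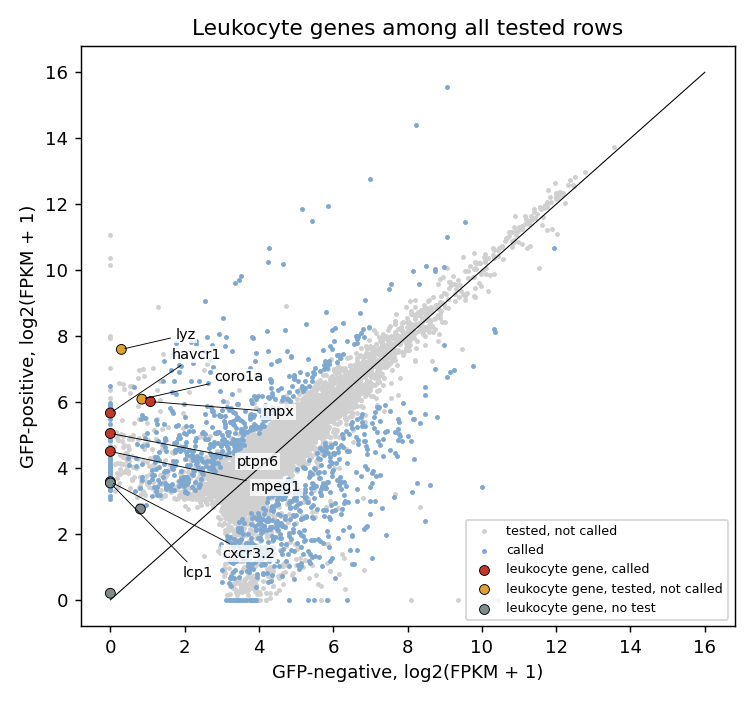
Levels of all 7299 tested rows in GFP-negative (horizontal) and GFP-positive cells (vertical) as log2(FPKM + 1), with grey for rows not called, blue for called rows and large points for the 10 leukocyte rows, tested or not. The leukocyte rows sit along the left edge, at no more than 1.11 FPKM in GFP-negative cells, where called and uncalled rows lie side by side.

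Over all rows at these levels, enriched or not, a listed 0 was uncommon. Of the 3880 rows with 10.7 to 49.8 FPKM in GFP-positive cells, the range spanned by the 5 main leukocyte rows at 0, 56 (1.44%) were listed at 0 in GFP-negative cells. In the mirrored comparison, 27 of 3880 rows (0.696%) at those levels in GFP-negative cells were listed at 0 in GFP-positive cells. Since a 0 in such a table may stand for an estimate that failed, the 0 of mpeg1, havcr1, cxcr3.2, ptpn6 and lcp1 is a listed value and sets no limit on their expression. Over all levels, 61 tested rows had a listed 0 in GFP-negative cells, and 42 of them were called in the authors' deposited table, 41 with its smallest p of 5e-05. For such rows, mpeg1, havcr1 and ptpn6 among them, the test statistic is missing beside the p-value.

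The calls of the leukocyte genes did not follow the size of the difference. Among the tested rows with at least 10 FPKM in GFP-positive cells that were listed at 0 or at least 16-fold lower in GFP-negative cells, 106 of 225 were called. The 16-fold minimum required a higher GFP-positive level where the GFP-negative level was higher, so the levels of the fractions are not separated here. Together with the 10 FPKM minimum, it also required a larger ratio at the lowest GFP-negative levels above 0. Within this selection the share called varied with the GFP-negative level. It was 36 of 55 rows (65.5%) at 0, where mpeg1, havcr1 and ptpn6 lie, and 2 of 52 (3.85%) above 0 and up to 0.5 FPKM, where lyz lies. It was 12 of 41 (29.3%) above 0.5 and up to 1 FPKM, the range of coro1a, and 9 of 24 (37.5%) above 1 and up to 2 FPKM, the range of mpx. Above 2 and up to 5 FPKM 21 of 25 (84%) were called, and above 5 FPKM 26 of 28 (92.9%). The median ratio was 76.0 in the bin of lyz, 35.9 in that of coro1a and 29.97 in that of mpx, and 39.6 and 43.9 in the bins above. The bin of lyz thus had the highest median ratio and the lowest share of calls, while the bins of coro1a and mpx had smaller median ratios and lower shares than those above 2 FPKM.

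**Figure D3:**
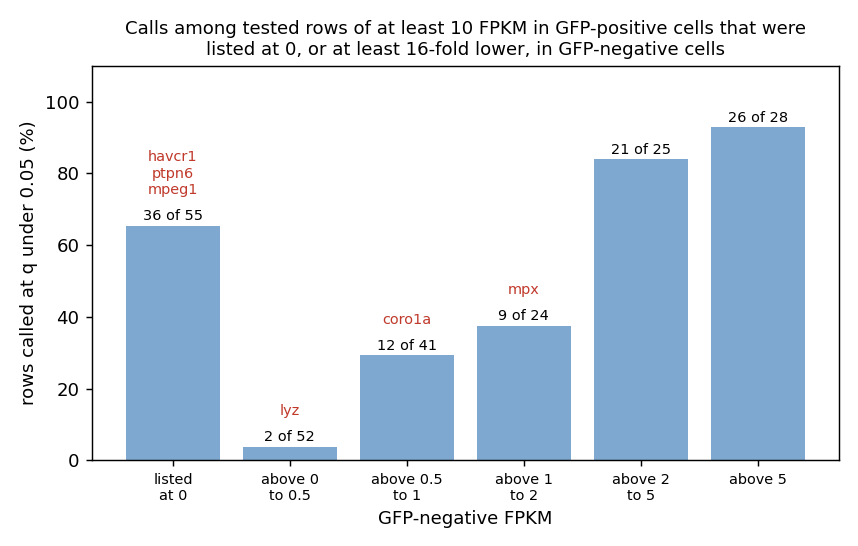
Share of rows called at a q-value of 0.05 (bars, in %) by GFP-negative FPKM, among tested rows of at least 10 FPKM in GFP-positive cells that were listed at 0 or at least 16-fold lower in GFP-negative cells; the counts stand above the bars and the leukocyte genes in each bin are named. The bin of lyz has the lowest share, 2 of 52, and mpeg1, havcr1 and ptpn6 fall in the bin at 0, with 36 of 55.

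Most rows with a test statistic like that of lyz were called. The statistic of lyz was -3.54 in the authors' deposited table, and of the 293 tested rows whose statistic was within 0.5 of it in size, 227 (77.5%) were called, with a median p of 0.0003 against 0.208 for lyz. For coro1a the statistic was -1.05 in the authors' deposited table, where 28 of 2536 rows of like size (1.104%) were called. For mpx it was -7.88, and 6 of 6 such rows were called in the authors' deposited table. Of the 77 tested rows with a ratio at least as large as that of mpx, 22 were called. Each of these counts of rows includes the named gene itself.

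Other genes of white blood cells were examined from 4 lists of macrophage, neutrophil, pan-leukocyte and myeloid transcription factor genes. These lists, too, were chosen with earlier results of these data known. Of their 66 further symbols, 48 matched a row by name in the same letter case, each 1 row. The others were not counted here, and rows written in capitals were missed. Of the 48 rows, 22 were tested, 9 were called higher in the authors' deposited table and 13 did not pass, while 26 had no test. All 22 tested rows stood higher in GFP-positive cells, and so did 45 of the 48. Of all tested rows 7.18% were called higher. A row can pass the requirement for enough alignments through the fraction where it is high. As for the 10 leukocyte rows, the counts therefore describe these rows only. The median log2((FPKM + 1) ratio) was 2.38 over the 48 rows, tested or not. It was 0.05 over all tested rows and 0 over all rows, tested or not. Their summed level was 1156 FPKM in GFP-positive cells and 131 FPKM in the GFP-negative fraction, a ratio of 8.82. For the sums of the 10 leukocyte rows the ratio was 157, with 6 of the 10 listed at 0 in GFP-negative cells, against 17 of the 48. Both sets were chosen with earlier results known, so these ratios do not compare kinds of genes, and their difference was not tested. By list the ratio of sums was 42.8 for macrophage, 65.8 for neutrophil, 6.03 for pan-leukocyte and 4.09 for transcription factor rows. The largest GFP-negative levels among the 48 rows were those of cebpb, at 56.5 FPKM, and of the chemokine receptor gene cxcr4b, at 22.0 FPKM. These 2 rows gave much of the summed 131 FPKM and so lowered the ratio of 8.82.

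Of 7 further neutrophil rows, 3 of 4 tested were called higher in the authors' deposited table. The collagenase gene mmp13a had 60.9 FPKM and lect2l, a relative of a leukocyte chemotactic factor, had 16.5 FPKM, both against a listed 0 and with q = 0.000958 in the authors' deposited table. The gelatinase gene mmp9 had 22.4 against 2.36 FPKM (q = 0.00539, authors' deposited table). The neutrophil protease gene npsn (nephrosin) resembled lyz, with 204 against 2.42 FPKM and no call (q = 0.542, authors' deposited table). The granulocyte growth factor receptor gene csf3r had 5.15 against 0.0581 FPKM and no test.

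Of 13 further macrophage rows, 4 were tested and 0 were called by Cuffdiff. Without adjustment 1 of them, slc7a7, had a p under 0.05, and no other tool was run. Letter case kept a tested row named CD68 out of this list. It had 28.6 against 1.36 FPKM and was not called, with Cuffdiff p = 0.016 and q = 0.0909 in the authors' deposited table. The amino acid transporter gene slc7a7 had 10.5 against 0.976 FPKM, with p = 0.0142 and q = 0.0828 in the authors' deposited table. The macrophage marker gene mfap4 had 176 against 1.65 FPKM, a ratio of 106, with q = 0.561 in the authors' deposited table. The scavenger receptor gene marco had 2.13 FPKM against a listed 0, and the growth factor receptor gene csf1ra 0.697 against 0.231 FPKM, both with no test. The complement genes c1qa and c1qc were listed at 0 in GFP-positive cells and had 0.783 and 0.378 FPKM in GFP-negative cells. Their relative c1qb went the other way, with 0.286 FPKM in GFP-positive cells against a listed 0. These complement rows had no test.

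Of 18 further pan-leukocyte rows, 8 were tested and 3 were called higher in the authors' deposited table. The beta-2 integrin gene itgb2, a leukocyte adhesion receptor subunit, had 7.35 FPKM against a listed 0 and q = 0.000958 in the authors' deposited table. The blood cell GTPase gene rac2 had 50.8 against 8.80 FPKM (q = 0.00945, authors' deposited table). The CD45 phosphatase gene ptprc had 9.71 against 0.148 FPKM and was not called (q = 0.561, authors' deposited table). By value 17 of the 18 rows stood higher in GFP-positive cells and 1, tyrobp, stood lower. It was listed at 0 in GFP-positive cells and had 0.721 FPKM in GFP-negative cells, with no test.

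Of 10 rows of myeloid transcription factor genes, 6 were tested and 3 were called higher in the authors' deposited table. The gene cebpa, which drives granulocyte formation and also acts in other tissues such as liver, had 25.4 against 1.66 FPKM (q = 0.00374 in the authors' deposited table). Its relative cebpb had 137 against 56.5 FPKM, and gfi1b, known for red cell and platelet lineages, had 18.6 against 0.397 FPKM; their q in the authors' deposited table was 0.0283 and 0.0137. The PU.1 gene spi1b had 43.0 against 0.232 FPKM and the macrophage regulator irf8 8.49 against 0.857 FPKM. Their q in the authors' deposited table, 0.115 and 0.263, did not pass.

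**Figure D4:**
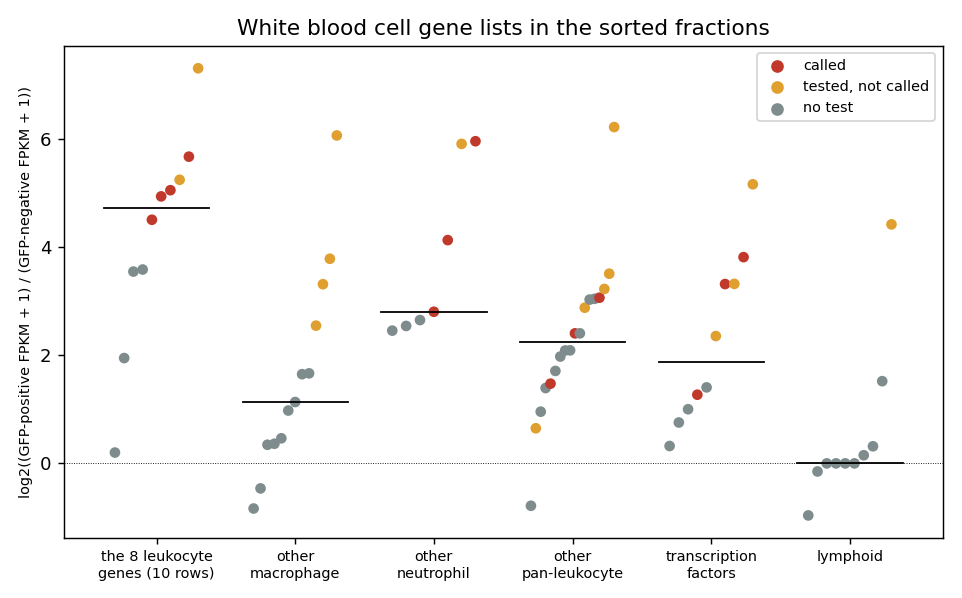
Log2 ratio of GFP-positive over GFP-negative FPKM, each with 1 FPKM added, for every row of the 8 leukocyte genes and of the white blood cell lists; horizontal bars are list medians and colours give the call in the authors' deposited table. Medians were 4.72 for the 10 rows of the 8 genes and 0 for the lymphoid list, in which 1 row was tested.

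The gate held other blood and vessel genes as well, and the part of such cells in the values above was not tested. Over all tested rows, 7.18% were called higher and 7.15% lower. Here, too, a row can pass the requirement for enough alignments through the fraction where it is high. The counts below therefore describe these rows only. Of 14 erythroid rows, 13 were called higher and 0 lower, with summed levels of 86787 FPKM in GFP-positive cells and 1105 FPKM in the GFP-negative fraction. The globin genes hbbe3, hbae3 and hbbe1.1 led them. Of 12 endothelial rows, 9 were called higher and 0 lower, with sums of 1935 and 45.9 FPKM, led by stab2, etv2 and egfl7. Among the called rows was fli1a, whose regulatory sequence drives the transgene. By value 11 rows stood higher in GFP-positive cells and 1, robo4, stood lower, at 8.53 against 12.5 FPKM with no call. The ratio of these sums was 78.6 for erythroid and 42.2 for endothelial rows, beside 157 for the 10 leukocyte rows, of which lyz gave 192 of 454 FPKM, and 8.82 for the 48 other white blood cell rows, and the differences between these ratios were not tested. Of 10 lymphoid rows 1 was tested and not called, ikzf1, which also acts outside lymphocytes, at 29.7 against 0.440 FPKM and q = 0.543 in the authors' deposited table. The B cell adaptor gene blnk had 1.87 FPKM against a listed 0, and the other lymphoid rows stood below 1 FPKM in both fractions. Among these, rag1 had 0.110 FPKM against a listed 0, cd79a a listed 0 against 0.948 FPKM and rag2 0.182 against 0.311 FPKM, and zap70, cd8a and both lck rows were listed at 0 in both fractions. Of 4 thrombocyte and mast cell rows matched by name only gp1bb was tested, at 10.5 against 1.73 FPKM and q = 0.587 in the authors' deposited table. A tested row named GP9, left out by its letter case, had 18.1 against 1.75 FPKM and was not called. The thrombocyte integrin gene itga2b was listed at 0 in both fractions, and the mast cell gene cpa5 had 5.89 FPKM against a listed 0, with no test. Of the lists for other tissues, 4 of 5 neural, 3 of 5 muscle and 4 of 5 epidermal rows were called lower in GFP-positive cells. Of 4 neural crest rows 3 were called higher, led by twist1a at 172 against 67.2 FPKM, and 1 lower. The row called lower was sox10, at 1.78 against 10.9 FPKM and q = 0.0141 in the authors' deposited table.

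The tested gene whose pair of levels lay nearest to each leukocyte row was found by Euclidean distance on log2(FPKM + 1) over the 2 fractions. Nearest to havcr1 was the microRNA gene dre-mir-142a, at 43.8 FPKM against a listed 0, distance 0.184, with q = 0.00433 in the authors' deposited table. Nearest to coro1a was lygl1, at 57.9 against 0.673 FPKM, distance 0.231, with q = 0.561 in the authors' deposited table. Nearest to mpx was vsg1, at 65.7 against 1.52 FPKM, distance 0.258, with q = 0.132 in the authors' deposited table. The regulator of G protein signalling gene rgs13, at 11.3 FPKM against a listed 0 and called in the authors' deposited table, lay nearest to both cxcr3.2 and the main lcp1 row, which had no test at 11.0 and 10.7 FPKM. The genes nearest to the main ptpn6 row, mpeg1 and lyz were vap, si:ch211-261o3.3 and SNORA5, each with a listed 0. Their distances were 0.0517, 0.0826 and 0.465. With 30.9 FPKM in GFP-positive cells, vap was not called (q = 0.306, authors' deposited table), although the main ptpn6 row was. The row si:ch211-261o3.3 had 20.4 FPKM there and, like mpeg1, was called (q = 0.000958, authors' deposited table). The small nucleolar RNA gene SNORA5 had 247 FPKM in GFP-positive cells and, like lyz, was not called, with q = 0.558 in the authors' deposited table. Nearest to the second ptpn6 row was c1qtnf6a, at 6.30 against 0.676 FPKM, distance 0.130, and nearest to the second lcp1 row crybb1l2, at 1.51 against 4.71 FPKM, at the much larger distance of 2.76. A likeness over 2 values says little beyond the levels themselves.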

How the data were processed

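RNA-seq was done on 4 libraries, 2 per sorted fraction. Cuffdiff 2.1.1, TopHat2 2.0.9 and Zv9 are listed in the submitters' processing notes; settings, strand use and annotation are not given in the sources used here. Per the file headers, the authors deposited 1 FPKM value per gene and fraction, a log2 ratio of GFP-negative over GFP-positive, a p-value, a q-value and the test's score. That the values join both libraries of a fraction was taken from the sample titles. Recomputed from FPKM, the log2 column differed by at most 1.5e-05. The deposited q-value matched a Benjamini-Hochberg adjustment over tested rows within 5.3e-07. With no read numbers the depth is unknown, so intervals and detection limits are left out.

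Of 31716 rows 7299 had a test, 24304 had too few alignments and 113 were marked LOWDATA by Cuffdiff. A row was called at a q under 0.05. No new test was run. Ratios over both fractions used FPKM as deposited; medians used log2(FPKM + 1), which understates the change of low genes. Work was done in Python 3.11.15 with pandas 2.3.3, and the adjustment was tested on simulated data. Locus coordinates are those of the Cuffdiff locus, with the first base of a start (0 or 1) not stated. Rows were matched by symbol in the same letter case. Of the 10 IDs, 8 matched the reference of gene names, all but the main ptpn6 row and the second lcp1 row. The genes and lists were chosen with earlier results of these data known. Named were all 8 genes, the called genes and a set of well known ones of the myeloid lists, and up to 3 of each other list. Further lymphoid genes, slc7a7, c1qa, c1qb, c1qc, cxcr4b, tyrobp, CD68, GP9, fli1a, robo4 and sox10 were added after their values were seen. Also named were same-symbol and near-copy rows of mpeg1 and cxcr3, and the nearest gene of each row. Paralogues of the others were chosen after their values had been seen. Of the called genes of these lists, 1 is not reported here by name. Promoter sequences were not used here.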

Additional observations from a re-analysis of the deposited data

How the results depend on the processing

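The 4 calls among the leukocyte genes were also 4 at a q of 0.01, with a minimum log2 ratio of 1, with minimum values of 1 and 5 FPKM and adjustment over those rows, in rows alone in their locus (where lyz and coro1a drop out) and, chosen after seeing the data, with 1 row per symbol. The 9 calls of the other white blood cell genes were 6 at a q of 0.01 and 9 otherwise. The median log2 ratio of the 10 leukocyte rows was 4.72 with 1 FPKM added, 6.77 with 0.1, 9.86 with 0.01, 5.09 without rows at 0 and 4.99 with 1 row per symbol. For the 48 other rows it was 2.38, and then 3.73, 5.52 and 2.54. Adding less spreads rows listed at 0 by construction. Centring on the median ratio over 11895 rows (0.01) left both medians within 0.02. No tested leukocyte row changed side of the threshold under these settings; several of them reuse the deposited q, and added constants cannot turn a sign, so this says little about stability. No paired analysis was possible because the table holds 1 value per fraction; for the same reason no replicate could be left out. The unknown depth limits what the values at 0 and below 1 FPKM can show.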

Other observations

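The table holds a cluster of mfap4 copies on chromosome 1, of which the row named mfap4 belongs to the macrophage list; the others were chosen after their values had been seen. Of the 14 rows of this family, 12 were higher in GFP-positive than in GFP-negative cells by value, 2 were listed at 0 in both fractions and 4 were tested. Besides mfap4, the rows MFAP4 (4 of 14) and MFAP4 (10 of 14) had 124 against 0.717 FPKM and 129.998 against 1.21 FPKM, ratios of 172 and 107, and neither was called, both with q = 0.561 in the authors' deposited table. The row MFAP4 (11 of 14) had a lower GFP-positive level, 23.3 FPKM against a listed 0, and was called, with q = 0.000958 in the authors' deposited table. Reads may be shared among such copies, so the split of levels within the family is uncertain.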
